A study of Homo sapiens with 18 samples.

Results

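Small nucleolar RNA host genes are transcribed into spliced long noncoding RNAs whose introns release small nucleolar RNAs (snoRNAs), the guides for chemical modification of ribosomal and spliceosomal RNA. The group described here was fixed by name as GAS5, ZFAS1, SNHG1, SNHG5, SNHG6, SNHG7, SNHG8, SNHG12, SNHG15 and SNHG16. The rule names genes and sets no threshold on a measured value. The genes were chosen with earlier results of these data known, so counts among them set against all genes are descriptive. All 10 had a row among the 15747 genes of the table for cytoplasm and polysomes and among the 44682 genes of the table for whole cells. The RNA came from DU145, an established line from a metastatic prostate carcinoma, given 40 µM GC7 or vehicle for 24 h. GC7 inhibits deoxyhypusine synthase, the enzyme that starts the hypusine modification of the translation factor eIF5A. RNA was sequenced as whole-cell RNA, as cytoplasmic RNA from lysates cleared of nuclei and mitochondria, and as RNA of heavy polysomes from sucrose gradients. The 6 groups were GC7 and vehicle in whole cells, GC7 and vehicle in cytoplasm, and GC7 and vehicle in polysomes, with 3 libraries in each and 18 in all. Per the labels' protocols, cells of both treatments received emetine, a blocker of translation elongation, shortly before harvest for the gradients.

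The exons that remain after the snoRNAs are cut out are exported, carry only short reading frames and are known to be bound by ribosomes. Such RNAs are textbook substrates of nonsense-mediated decay, the pathway that removes RNAs on which translation stops well upstream of an exon junction, and several of them are known to accumulate when translation is blocked. Many host genes also start with a 5′ terminal oligopyrimidine tract, the run of C and T bases by which mRNAs of ribosomal proteins are recognised.

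The values are the authors' comparisons between treatments, with no value for each library, so neither the depth of a library nor the spread between replicates can be given, and the overlap of the groups cannot be shown. The p-values measure the spread between the 3 libraries of a group, which may be technical, since the labels do not say that they came from separate cultures. Which treatment is the numerator is not stated in either file. The category "UP" of the fraction table was read as higher with GC7, and the sign of the whole-cell table was reversed because its values ran against those of both fractions across 13985 genes (Pearson's r across genes of -0.39 with cytoplasm and -0.46 with polysomes). Every direction below rests on this reading. Epithelial keratins marked the cells, with KRT18 at the 99.4th and KRT8 at the 99.3rd percentile of mean normalized count in cytoplasm, and VIM stood at the 99.1st. The prostate genes KLK3 and TMPRSS2 and the leukocyte gene PTPRC stood at the value shared by genes without reads in whole cells.

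The 5′ ends of the host genes are shown because the oligopyrimidine tract for which this class is known would lie there. Not all of these genes carry it. RefSeq (GRCh38.p14) gave a promoter for 8 of the 10 genes, and each line runs from 40 bases before the annotated start to 20 bases from the start on, 5′ to 3′ on the gene's strand. Capitals mark the unbroken run of C and T that holds the first transcribed base. The windows are chr1:173869026-173869085 for GAS5, chr11:62855866-62855925 for SNHG1, chr6:85678714-85678773 for SNHG5, chr9:136728165-136728224 for SNHG7 and chr1:28581854-28581913 for SNHG12, all on the minus strand, and chr20:49278602-49278661 for ZFAS1, chr4:118278722-118278781 for SNHG8 and chr17:76557724-76557783 for SNHG16 on the plus strand.
GAS5: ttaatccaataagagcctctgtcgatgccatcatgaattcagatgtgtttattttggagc
ZFAS1: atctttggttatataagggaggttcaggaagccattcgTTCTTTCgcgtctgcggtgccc
SNHG1: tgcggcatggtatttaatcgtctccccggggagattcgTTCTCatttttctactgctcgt
SNHG8: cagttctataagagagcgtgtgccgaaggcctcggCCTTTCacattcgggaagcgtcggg
SNHG5: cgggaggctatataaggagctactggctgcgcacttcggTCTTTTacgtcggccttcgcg
SNHG16: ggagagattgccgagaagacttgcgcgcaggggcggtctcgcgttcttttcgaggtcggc
SNHG12: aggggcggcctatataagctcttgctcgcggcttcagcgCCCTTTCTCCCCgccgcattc
SNHG7: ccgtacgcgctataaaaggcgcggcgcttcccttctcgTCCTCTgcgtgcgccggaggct

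A pyrimidine run of at least 5 bases over the start was present in 6 of the 8 promoters, against 9.07% of the 11138 RefSeq promoters of genes in the fraction table. In both, the run was counted on either side of the start, so part of it can lie before the first transcribed base. The run was 12 bases in SNHG12, 7 in ZFAS1, 6 in SNHG5, SNHG7 and SNHG8, and 5 in SNHG1. Fewer than 5 of these bases lie from the start on in SNHG1, SNHG7 and SNHG8. For those genes the run does not show a transcribed tract of that length. GAS5 and SNHG16 had a purine at the annotated first base. The motif TATAA, searched from 40 to 20 bases before the start, was present on the gene's strand in 5 of the 8 (ZFAS1, SNHG5, SNHG7, SNHG8 and SNHG12), against 2.92% of the 11138 promoters. Its reverse complement TTATA was present in 1 of the 8, ZFAS1, where it overlaps the TATAA, and in 1.04% of all.

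These matches depend on the annotated start. The RefSeq start of GAS5 lies 163 bases from the 5′ end of the gene in GENCODE release 44, and 51 of the 91 GENCODE transcripts of GAS5 begin with 5 pyrimidines. Such a beginning was also annotated for 7 of 14 transcripts of ZFAS1, 5 of 8 of SNHG6 and 10 of 19 of SNHG12, for 6 of 15 of SNHG8 and 5 of 18 of SNHG16, and for none of the 10 of SNHG7 or the 14 of SNHG15. It was found in only 3 of 80 transcripts of SNHG1 (3.75%) and 3 of 89 of SNHG5 (3.37%). Both have the run over their RefSeq start, but that of SNHG1 reaches 5 bases only with those before the start. Across the 960 other long noncoding RNA genes of the fraction table it was found in 5.39% of 10542 transcripts. In 30 protein-coding host genes with a RefSeq promoter, many of them genes of ribosomal proteins, 17 had the run of at least 5 bases over the start, and in 14 other noncoding host genes 3 had it.

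A first reading frame followed by an exon junction was annotated in most transcripts of all 10 host genes. The first ATG with an in-frame stop opened a frame of 12 codons in SNHG5, 13 in SNHG7, 25 in ZFAS1, 42 in SNHG1 and 50 in GAS5, each a median over the transcripts of that gene. The median was 28.5 codons over the 10 host genes and 23.75 over the 960 other long noncoding RNA genes, so the frames were not shorter than in this class. At least 1 exon junction lay more than 50 bases downstream of that stop in 89 of 91 transcripts of GAS5, 75 of 80 of SNHG1, 10 of 14 of ZFAS1, 82 of 89 of SNHG5, 11 of 15 of SNHG8 and 6 of 8 of SNHG6. The share was above 50% of transcripts in all 10 genes and in 65.4% of the 960 other long noncoding RNA genes, so the feature is common in this class of RNA. RefSeq lists 37 snoRNA genes inside the 10 host genes, from 11 in GAS5 and 9 in SNHG1 to 1 each in SNHG6, SNHG8 and SNHG15.

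The snoRNAs themselves were hardly seen. Of 36 named intronic snoRNAs of these hosts, 35 had a row in whole cells and 32 of those stood at the value shared by genes without reads, and the fraction table had a row for none of them. The 3 with reads were SNORA24, hosted by SNHG8, SNORD12B, hosted by ZFAS1, and SNORD22, hosted by SNHG1. What follows therefore describes host RNAs and not the guides they release.

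Among RNAs of the cytoplasm the host genes were abundant. Scaled to the median length of the annotated transcripts, mean normalized counts per kilobase over both treatments were highest for GAS5 at 62110, ZFAS1 at 48210, SNHG6 at 38490 and SNHG5 at 19020. SNHG7 followed at 7084 and SNHG1 at 6662, then SNHG8 at 3816, SNHG16 at 3400, SNHG15 at 3117 and SNHG12 at 1806. No spread was available for these levels, so whether neighbours in the order differ was not tested. Without scaling, 8 of the 10 stood at or above the 91.1st percentile of all genes in cytoplasm, with SNHG8 at the 82.9th and SNHG12 at the 83.7th.

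The first question was which host RNAs changed in cytoplasm with GC7. GAS5, the growth arrest-specific transcript and host of a cluster of box C/D snoRNAs, rose most. ZFAS1, the host of the SNORD12 family transcribed from the promoter region of ZNFX1, and SNHG1, the host of the SNORD22 to SNORD31 cluster, rose as well. In all, 3 of 10 host genes had an adjusted p under 0.05 and were higher, against 2.29% of all 15747 genes in the authors' deposited table, and none was lower, against 1.95%. Among the 960 other long noncoding RNA genes, 3.02% were higher and 1.04% lower. Their median cytoplasmic level was at the 20.8th percentile, and shares among genes as abundant as the host genes were not computed.

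The authors' deposited table gives GAS5 (chromosome 1, 173858559 to 173868882, minus strand, GRCh38) 1.36 ± 0.26 (SE) on the log2 scale in cytoplasm (adjusted p = 3.31e-06), or 2.57-fold. For ZFAS1 (chromosome 20, 49278178 to 49299600, plus strand) the authors' deposited table gives 0.91 with an SE of 0.30 (adjusted p = 0.0076), or 1.88-fold. For SNHG1 (chromosome 11, 62851978 to 62855953, minus strand) it is 0.70 with an SE of 0.20 (adjusted p = 0.00269) in the authors' deposited table, or 1.62-fold. Each of the 3 changes was larger than its error by the authors' test.

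The other 7 host genes did not pass in cytoplasm. In the bulk RNA of a culture, fewer cells with an RNA and less of it per cell cannot be told apart. SNHG15, host of SNORA9, had 0.28 with an SE of 0.16 (adjusted p = 0.207) and SNHG5, host of the SNORD50 pair, 0.25 with an SE of 0.24 (adjusted p = 0.342) in the authors' deposited table. SNHG8, host of the H/ACA snoRNA SNORA24, stood at 0.11 (SE 0.20), SNHG16, host of the SNORD1 group, at 0.06 (SE 0.13) and SNHG6, host of SNORD87, at 0.03 (SE 0.18) in the authors' deposited table. SNHG12, host of H/ACA snoRNAs and SNORD99, and SNHG7, host of the SNORA17 pair, were the only negative members, at -0.06 (SE 0.19) and -0.07 (SE 0.18) in the authors' deposited table.

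The deposited values are shrunken towards 0, and the shrinkage bears most on imprecise members. Unshrunken, the cytoplasmic value of SNHG8 was 0.37 with a 95% interval from -0.27 to 1.01, that of SNHG6 was 0.13 (-0.58 to 0.85) and that of SNHG12 was -0.40 (-1.38 to 0.58). Changes within these bounds were not excluded at this precision. SNHG16 was bounded more closely, at 0.09 (-0.22 to 0.40). Among the uncalled genes, only the interval of SNHG15 excluded 0, at 0.36 (0.057 to 0.67), before adjustment. Over the 10 host genes the median deposited log2 fold change was 0.18, beside 0.00 over all genes in the authors' deposited table.

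**Figure D1:**
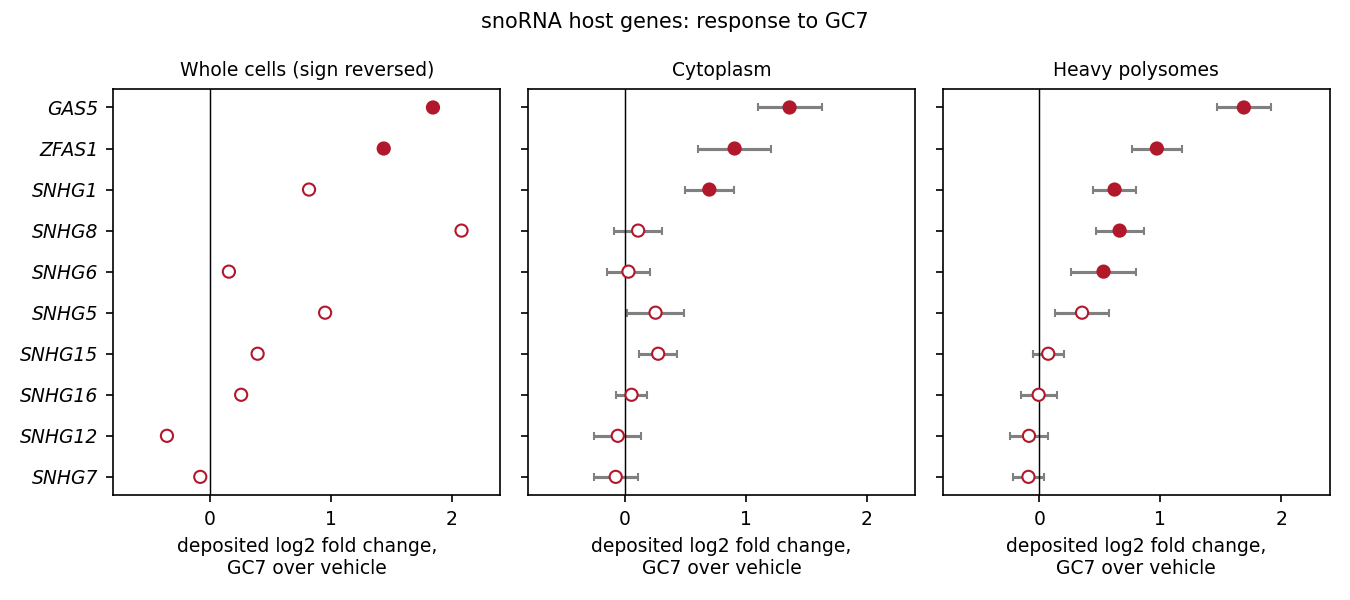
Deposited log2 fold changes of GC7 over vehicle for the 10 host genes in whole cells (sign reversed, no error deposited), cytoplasm and heavy polysomes, with bars for the SE. Filled points have an adjusted p under 0.05 in the fractions or an unadjusted p under 0.05 in whole cells: GAS5 and ZFAS1 are filled in all 3 panels, SNHG1 in both fractions, and SNHG8 and SNHG6 in polysomes.

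On heavy polysomes the question was which host RNAs changed among RNAs bound by several ribosomes. GAS5, ZFAS1 and SNHG1 rose here too, and SNHG8 and SNHG6 rose with them. Thus 5 of 10 host genes were higher, against 5.61% of all genes in the authors' deposited table, and none was lower, against 5.48%. Among the 960 other long noncoding RNA genes, 7.6% were higher and 3.85% lower. Shares among genes of similar abundance were not computed here either.

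For GAS5 the polysomal value in the authors' deposited table was 1.69 ± 0.22 (SE) on the log2 scale (adjusted p = 6.3e-13), or 3.23-fold. ZFAS1 stood at 0.97 with an SE of 0.21 (adjusted p = 1.1e-05), or 1.96-fold, and SNHG1 at 0.62 with an SE of 0.18 (adjusted p = 0.00156), or 1.54-fold, in the authors' deposited table. As deposited, GAS5 was the only host gene past a log2 fold change of 1 in either fraction, and the authors' deposited table places it in the category of genes higher in both. Unshrunken, ZFAS1 also passed 1, at 1.07 in cytoplasm and 1.05 on polysomes.

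SNHG8 (chromosome 4, 118278703 to 118285316, plus strand) had 0.66 with an SE of 0.20 (adjusted p = 0.00199), or 1.58-fold, in the authors' deposited table. For SNHG6 (chromosome 8, 66920561 to 66926398, minus strand) the authors' deposited table gives 0.53 with an SE of 0.27 (adjusted p = 0.041), or 1.44-fold, the call nearest to the threshold. SNHG5 (chromosome 6, 85650491 to 85678932, minus strand) had 0.35 with an SE of 0.22 in the authors' deposited table and did not pass (adjusted p = 0.116).

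The remaining 4 were near 0 on polysomes. SNHG15 (chromosome 7, 44983019 to 44986961, minus strand) stood at 0.07 (SE 0.13), SNHG16 (chromosome 17, 76557727 to 76670985, plus strand) at -0.01 (SE 0.15), SNHG12 (chromosome 1, 28578538 to 28583132, minus strand) at -0.09 (SE 0.16) and SNHG7 (chromosome 9, 136721366 to 136728184, minus strand) at -0.09 (SE 0.13) in the authors' deposited table. Their unshrunken 95% intervals ran from -0.19 to 0.42 for SNHG15, -0.43 to 0.41 for SNHG16, -0.57 to 0.24 for SNHG12 and -0.44 to 0.17 for SNHG7. Changes inside these 4 intervals were not excluded at this precision. The unshrunken polysomal values of the 5 called genes ran from 0.70 for SNHG1 and SNHG6 to 1.75 for GAS5. Their own intervals overlapped that of SNHG15 for SNHG6 (0.22 to 1.18), SNHG1 (0.36 to 1.035) and SNHG8 (0.38 to 1.12). Those of ZFAS1 (0.65 to 1.44) and GAS5 (1.32 to 2.17) lay above it. Whether called host genes differ from the others was not tested. The median over the 10 was 0.44, beside -0.01 over all genes in the authors' deposited table.

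In whole cells no gene of the table passed adjustment by Benjamini-Hochberg over 44682 genes, and 0 of the 10 host genes did. At an unadjusted p under 0.05, GAS5 and ZFAS1 were higher and none was lower, so 2 of 10, against 1.66% of all genes higher at that threshold, or 2.78% of the 26661 genes with reads. The shares called lower were 1.33% and 2.23%. With the sign of the authors' deposited table reversed, GAS5 reached 1.84 (unadjusted p = 0.00248) and ZFAS1 reached 1.44 (unadjusted p = 0.036). Read the same way from the authors' deposited table, SNHG8 had the largest value of the 10, 2.08, without an unadjusted p under 0.05 (p = 0.0895). SNHG5 stood at 0.95 (p = 0.204), SNHG1 at 0.82 (p = 0.26), SNHG15 at 0.39, SNHG16 at 0.26 and SNHG6 at 0.16, signs again turned round from the authors' deposited table. SNHG7 at -0.08 and SNHG12 at -0.36 were again the 2 negative members once the authors' deposited table was read this way. The table gives no SE, and its fold changes are not shrunken, so their sizes were not compared with those of the fractions.

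The design asks further whether a host RNA changed on polysomes by more than it changed in the cytoplasm, which was tested as the difference of the unshrunken log2 fold changes. None of the 10 passed. By a normal test with Benjamini-Hochberg adjustment, 0 of 15669 genes passed (0% called), and 335 (2.14%) had an unadjusted p under 0.05, with 1.09% higher and 1.05% lower in polysomes and no host gene among them. A share of 2.14% is below what a p under 0.05 gives when no gene differs. The test was thus conservative here, and its intervals may be too wide. It treats the fractions as independent, and whether their errors are correlated was not tested.

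The polysomal minus cytoplasmic difference was 0.57 for SNHG6 (SE 0.44, 95% interval -0.29 to 1.42), 0.38 for SNHG8 (SE 0.38, -0.36 to 1.12) and 0.29 for GAS5 (SE 0.34, -0.37 to 0.95). SNHG6 and SNHG8 passed on polysomes and not in cytoplasm, but their differences between fractions did not pass, so they are not shown to differ. For ZFAS1 the difference was -0.02 (SE 0.34, -0.69 to 0.65) and for SNHG1 -0.09 (SE 0.26, -0.59 to 0.41). SNHG15 had the most negative one, -0.25 (SE 0.22, -0.69 to 0.18). The smallest unadjusted p among the 10 was 0.1945, for SNHG6, and their median difference was 0.07, beside 0.01 over all genes.

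**Figure D2:**
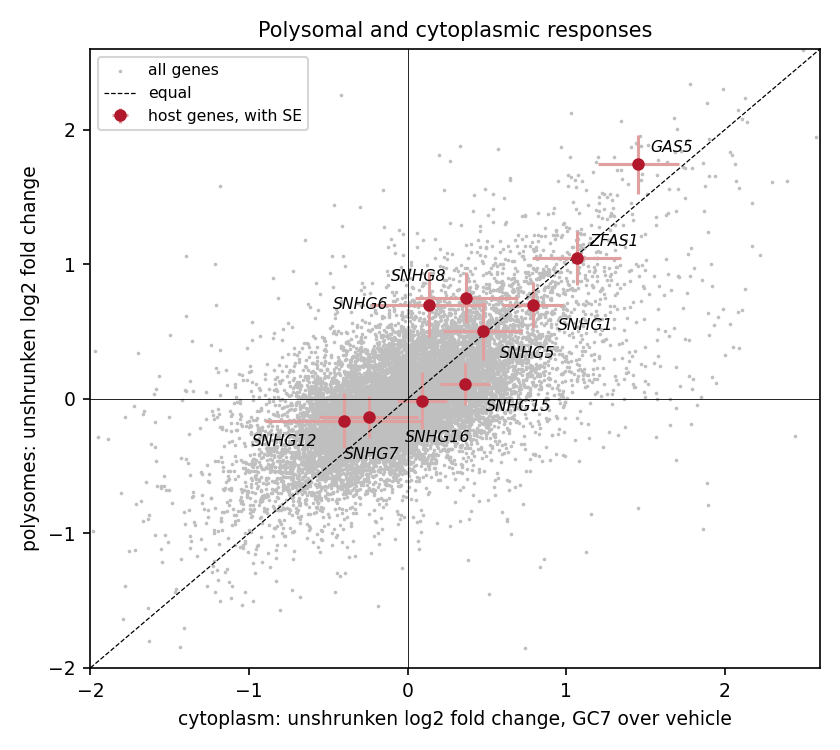
Unshrunken log2 fold changes of GC7 over vehicle in polysomes against cytoplasm for all genes inside the plotted range (grey) and the 10 host genes (red, with SE in both directions). The host genes run from SNHG12 at -0.40 in cytoplasm and -0.16 in polysomes to GAS5 at 1.46 and 1.75. SNHG6 at 0.13 and 0.70 and SNHG8 at 0.37 and 0.75 lie farthest above the line of equal change. SNHG15 at 0.36 and 0.11 lies farthest below it.

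**Figure D3:**
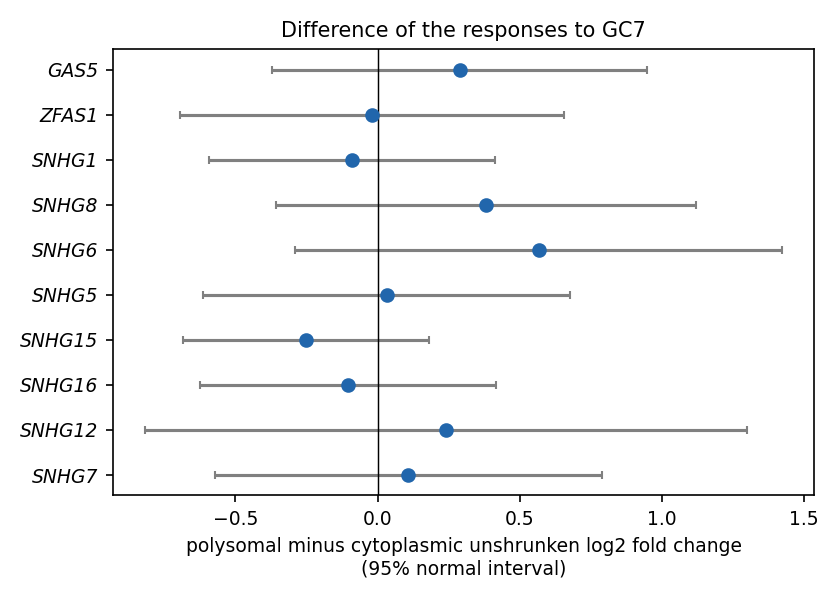
Polysomal minus cytoplasmic unshrunken log2 fold change for each host gene, with bars for the 95% normal interval. All 10 intervals include 0, and the widest, that of SNHG12, runs from -0.82 to 1.30.

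How strongly each RNA sat on polysomes at all was described by its mean normalized count in polysomes over that in cytoplasm, averaged over both treatments. Several of the most abundant host RNAs were at the low end of this ratio. It was 0.48 for SNHG6, the 1.09th percentile of all genes, 0.68 for GAS5 (3.66th percentile), 0.77 for SNHG5 (6.26th), 0.87 for SNHG12 (10.8th) and 0.90 for ZFAS1 (11.9th). The median gene had a ratio of 1.42, a value that depends on separate scaling of the fractions, so only ranks are read from it.

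The other 5 host RNAs were spread through the middle of the ranking. SNHG16 stood at the 25.6th percentile, SNHG7 at the 29.2nd, SNHG1 at the 48.6th, SNHG8 at the 56.4th and SNHG15 at the 73.6th. The median percentile was 18.8 for the 10 host genes and 49.7 for the 960 other long noncoding RNA genes, whose median level in cytoplasm was only at the 20.8th percentile. Of the 38 protein-coding host genes, 26 were also below the 25th percentile. No test was made, since each ratio is a single value per gene, and the part played by RNA length in it was not tested. Low ratios were found both among host genes that rose (GAS5 and ZFAS1) and among those without a call in either fraction (SNHG5 and SNHG12).

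**Figure D4:**
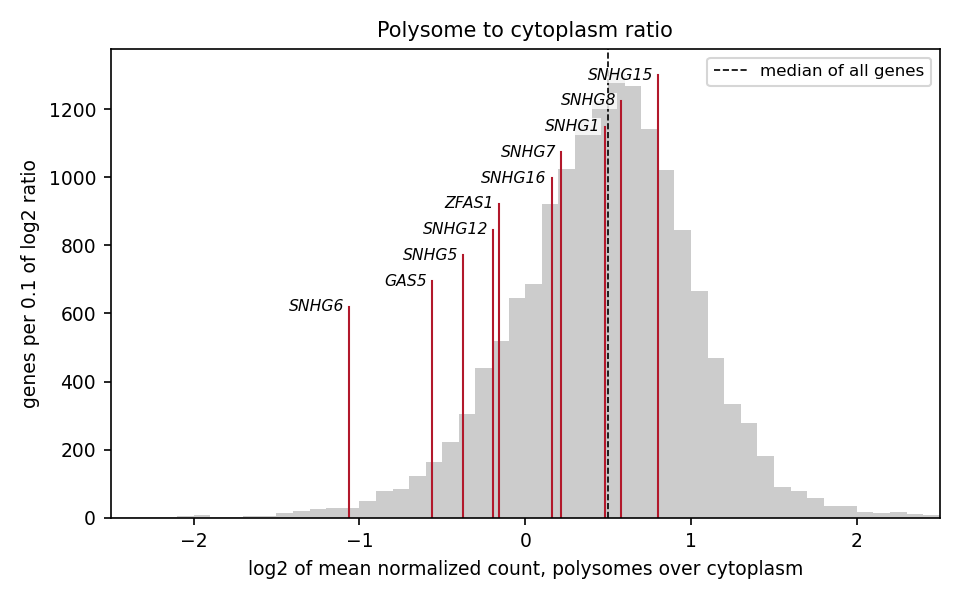
Distribution over all genes of the log2 ratio of mean normalized count in polysomes over cytoplasm (grey bars, genes per 0.1), with a red line for each host gene and a dashed line at the median. The heights of the red lines carry no value; SNHG6, GAS5 and SNHG5 lie in the lower tail and SNHG15 lies above the median.

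Other noncoding host genes did not move in 1 direction. Of 16 measured, cytoplasm had 1 call in each direction and polysomes had 4 in each, with a polysomal median of 0.02 in the authors' deposited table. Shares over all genes were 2.29% higher and 1.95% lower in cytoplasm, and 5.61% and 5.48% on polysomes. SNHG32 had a polysomal log2 fold change of 1.16 (SE 0.21), SNHG25 of 1.25 (SE 0.38) and EPB41L4A-AS1 of 0.80 (SE 0.20) in the authors' deposited table. SNHG29 was higher in both fractions, at 0.69 (SE 0.21) in cytoplasm and 0.55 (SE 0.23) on polysomes in the authors' deposited table. SNHG10 was lower in both, at -0.77 (SE 0.35) in cytoplasm and -0.90 (SE 0.23) on polysomes in the authors' deposited table. SNHG3 at -0.63 (SE 0.14), SNHG30 at -0.57 (SE 0.17) and DANCR, a noncoding host gene also known to oppose differentiation, at -0.51 (SE 0.18) were lower on polysomes in the authors' deposited table. SNHG25, SNHG29, SNHG30 and DANCR were named after their values were seen, to complete these counts.

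Protein-coding host genes, many of which encode ribosomal proteins and translation factors, had smaller changes. None of 38 was called in cytoplasm and 4 were higher and 1 lower on polysomes, with medians of 0.00 and 0.10 in the authors' deposited table. Over all genes, 2.29% were higher and 1.95% lower in cytoplasm, and 5.61% and 5.48% on polysomes. Of the 38, 32 had a positive polysomal value. The 4 were the ribosomal protein genes RPL4 at 0.46 (SE 0.12) and RPL3 at 0.38 (SE 0.13), the ribosomal scaffold gene RACK1 at 0.39 (SE 0.15) and the elongation factor gene EEF2 at 0.47 (SE 0.19) in the authors' deposited table. HSPA8, the constitutive cytosolic HSP70, was the 1 lower, with -0.45 (SE 0.22) by the authors' deposited table. It was named after its value was seen.

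mRNAs known as substrates of nonsense-mediated decay split as well. Of 16, 3 were higher and none lower in cytoplasm, and 4 were higher and 3 lower on polysomes in the authors' deposited table. The same shares over all genes apply, 2.29% and 1.95% in cytoplasm and 5.61% and 5.48% on polysomes. UPP1, uridine phosphorylase, stood at 1.38 (SE 0.15), GADD45A, a stress-induced growth arrest gene, at 1.15 (SE 0.14) and ATF3, a stress transcription factor, at 0.99 (SE 0.18) on polysomes in the authors' deposited table. In cytoplasm the same 3 stood at 1.18 (SE 0.19), 1.16 (SE 0.28) and 1.12 (SE 0.22) in the authors' deposited table. RPL10A was the other called higher on polysomes, at 0.32 (SE 0.13), and the splicing factor gene SRSF3 at -0.48 (SE 0.14), SRSF2 at -0.46 (SE 0.19) and ATF4, which drives the integrated stress response, at -0.37 (SE 0.14) were lower in the authors' deposited table. RPL10A, SRSF2 and ATF4 were named after their values were seen. Since UPP1, GADD45A and ATF3 are also known as stress-induced genes, slower decay and more transcription cannot be told apart from their level.

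Few genes of the decay machinery passed at the RNA level. Of 19 genes for nonsense-mediated decay and exon junction factors, none was called in cytoplasm, while CASC3, a core exon junction protein, was higher at 0.53 (SE 0.13) and PNRC2, a decapping coactivator, lower at -0.40 (SE 0.14) on polysomes in the authors' deposited table. None of 14 genes of cytoplasmic mRNA decay and none of 17 genes of snoRNP proteins and their assembly was called in either fraction by the adjusted p of the authors' deposited table. Of these, EDC3, a decapping enhancer, had the smallest unadjusted p in the first list, at -0.28 in cytoplasm (SE 0.18, unadjusted p = 0.02825), and NOP10, a subunit of H/ACA snoRNPs, in the second, at -0.31 on polysomes (SE 0.18, unadjusted p = 0.0171), both from the authors' deposited table. Next came DCP2, the decapping enzyme, at -0.30 (SE 0.24), and PIH1D1, an assembly factor of box C/D snoRNPs, at -0.27 (SE 0.14), both on polysomes by the authors' deposited table.

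**Figure D5:**
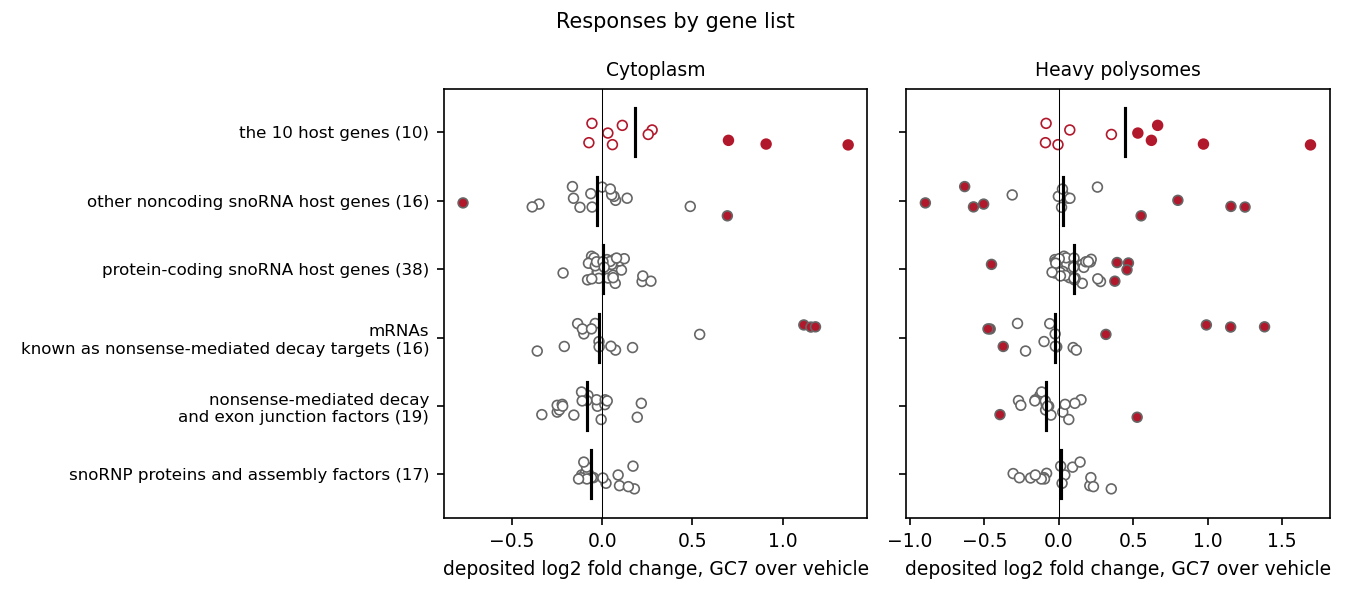
Deposited log2 fold changes of GC7 over vehicle in cytoplasm and heavy polysomes for each measured gene of 6 lists, with the number measured in parentheses, a vertical bar at the median and filled points at an adjusted p under 0.05. The 10 host genes have 3 filled points in cytoplasm and 5 on polysomes, all positive, while the other noncoding hosts have filled points on both sides of 0 on polysomes.

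Most host genes share their locus with another gene, and the sources used here do not say whether counting used the strand of the reads. ZFAS1 overlaps ZNFX1, and GAS5 overlaps ZBTB37, on the opposite strand in GENCODE. On polysomes ZNFX1 stood at -0.12 (adjusted p = 0.559) and ZBTB37 at -0.02 (adjusted p = 0.95) in the authors' deposited table. The mean normalized count of these partners in polysomes was 1511 for ZNFX1 and 194 for ZBTB37, against 29650 for ZFAS1 and 30740 for GAS5, as means in the authors' deposited table. SNHG8 overlaps PRSS12, which had a polysomal log2 fold change of 0.08 (adjusted p = 0.742), and SNHG12 overlaps TRNAU1AP, at -0.25 (adjusted p = 0.116), in the authors' deposited table. SLC3A2, the amino acid transporter chain encoded near SNHG1, rose in both fractions, at 0.48 (SE 0.17) in cytoplasm and 0.67 (SE 0.17) on polysomes in the authors' deposited table. SNHG1 itself has no overlapping gene in GENCODE, and the part of the neighbour in its value was not tested.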

How the data were processed

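The submitters' processing notes name Salmon 1.4.0, STAR 2.7.8a and GRCh38, in roles not given in the sources used here. The deposited files hold the authors' comparisons and no values for single libraries, so library depth is unknown and no count model was fitted. Per the file headers, the whole-cell file gives a log fold change, read as log2 from its steps, and a p-value. Per the file headers, the fraction file gives a mean normalized count over both treatments of a fraction, a log2 fold change with SE, and p-values before and after adjustment. Fraction calls use the authors' adjusted p under 0.05. Those of whole cells were adjusted here over all rows, by Benjamini-Hochberg.

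The fraction fold changes are shrunken. A Cauchy prior with a scale of 0.195 for cytoplasm and 0.205 for polysomes on the natural log scale was fitted to the deposited p-values and undone, and 78 genes with a recovered z off by over 0.5 were left out. The steps were checked on simulated data with independent errors in the fractions and added differences larger than any found for a host gene. Sensitivity to differences as small as those of the host genes was not checked. Python 3.11.15, numpy 2.4.6, scipy 1.17.1 and pandas 2.3.3 were used. Promoters are from RefSeq and transcripts from GENCODE release 44, both on GRCh38. The members and lists were chosen with earlier results of these data known. Named genes were the 10 members and, per list, up to 4 called genes with the smallest adjusted p, or the 2 with the smallest p. Results for some other genes are not reported here.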

Additional observations from a re-analysis of the deposited data

How the results depend on the processing

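The direction of every called host gene and each of their calls in the fractions were kept when the threshold was 0.1, when p-values were adjusted again over all rows, and when genes under a mean normalized count of 100 were left out. These settings leave fold changes as they are, and a looser threshold cannot remove a call. The second adjustment nearly repeats the first, and every host gene has a mean count well above 100. They are therefore weak checks of the calls. With a log2 fold change over 1 also required, calls fell to 166 genes and 1 host gene in cytoplasm and to 214 genes and 1 host gene in polysomes, GAS5 in both, by construction of the stricter rule. Without adjustment, whole cells had 1336 genes and 2 host genes at p under 0.05, and adjustment over genes with reads or over genes also in the fraction table gave 0. The count of genes that differed between polysomes and cytoplasm was 0, and 0 with the SE solved from the p-value or with low counts left out. It was 1 with deposited fold changes, 3 with the poorly recovered genes kept, 4 with the prior scale doubled and 536 with it halved, where the prior no longer matches the deposited p-values and only 5830 genes remained. No host gene was among them under any setting that gave it a value. The sign of this difference turned, without a call, for ZFAS1, SNHG7 and SNHG12 with deposited fold changes, for SNHG7 and SNHG12 with the prior doubled, and for SNHG15 with it halved, where 6 of 10 host genes had a value. No paired analysis was possible because the tables carry no value for a single library, and leaving out replicates was not run for the same reason. Precision in cytoplasm limits what can be said of SNHG6, SNHG8 and SNHG12.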
